A study of Mus musculus with 26 samples.

Results

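Irf4, Irf8 and Spib, the genes of 3 transcription factors of developing B cells, were followed across every RNA-seq library of the series. They were taken by symbol and are 3 of the 23762 genes in the count table, and all 3 were among the 14862 genes that passed the filter on low counts. The libraries came from mouse pre-B cells, in 9 groups of 2 libraries. Sorted small pre-B cells were either wild type or CXCR4-/-. Cultured pre-B cells were kept with IL-7 (IL7+), without it (IL7-), without it but with CXCL12 (IL7- CXCL12+), with both factors (IL7+ CXCL12+), or without IL-7 but with CXCL12 and ERK inhibitor II. CXCR4-/- cells, labelled small pre-B, were cultured without IL-7, either without or with CXCL12. Strain, age, the kind of CXCR4 deletion, doses and culture times are not given in the sources used here. Whether the 2 libraries of a group come from different mice or cultures is not said in the labels. The p-values therefore cover the spread between libraries, and that spread may be technical.

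IL-7 is the growth cytokine of B-cell precursors, and CXCL12 is a chemokine of the marrow stroma that signals through the receptor CXCR4. When a pre-B cell stops dividing it opens and rearranges its light chain genes, a step for which IRF4 and IRF8 are both known regulators that can stand in for each other in part. IRF4 and IRF8 bind DNA weakly alone and are recruited beside the ETS factors PU.1 or SPI-B to composite sites, among them sites in the light chain enhancers. SPI-B, the product of Spib, is a lymphoid relative of PU.1 (gene Spi1, listed as Sfpi1 in the table). The series' title names CXCR4 signalling and the kappa light chain locus, and the comparisons below ask how these 3 genes followed the cytokine, the chemokine and its receptor.

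The promoters of the 3 genes are shown because their transcripts moved together in the CXCL12 cultures described below, and because these factors bind known short motifs. The stretches are the 250 bases before the RefSeq start on build GRCm38.p6 (for Irf8, the first of 2 listed starts), read 5′ to 3′ along the gene. Capitals mark the ETS core GGAA, on either strand, and the longer PU box GAGGAA, which contains that core. Irf4 lies on the plus strand at chr13:30748983-30749232, Irf8 on the plus strand at chr8:120736108-120736357 and Spib on the minus strand at chr7:44532072-44532321.
Irf4: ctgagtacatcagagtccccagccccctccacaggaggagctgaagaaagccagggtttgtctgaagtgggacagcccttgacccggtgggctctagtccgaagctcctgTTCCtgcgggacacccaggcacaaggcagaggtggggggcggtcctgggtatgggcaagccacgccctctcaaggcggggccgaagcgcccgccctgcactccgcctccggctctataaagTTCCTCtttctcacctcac
Irf8: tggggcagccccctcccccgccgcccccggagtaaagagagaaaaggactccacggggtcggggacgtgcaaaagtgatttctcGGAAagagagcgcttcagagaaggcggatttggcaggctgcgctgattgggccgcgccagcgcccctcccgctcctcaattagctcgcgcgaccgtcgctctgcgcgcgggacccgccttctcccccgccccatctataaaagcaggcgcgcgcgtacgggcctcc
Spib: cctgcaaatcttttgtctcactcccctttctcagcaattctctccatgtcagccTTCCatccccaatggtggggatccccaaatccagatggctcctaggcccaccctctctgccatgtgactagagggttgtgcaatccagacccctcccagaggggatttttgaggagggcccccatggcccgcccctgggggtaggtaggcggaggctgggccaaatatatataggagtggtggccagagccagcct
Irf4 held 2 ETS cores, beginning 140 and 19 bases before the start on the opposite strand, and the nearer of them is a PU box. Irf8 held 1 ETS core, 166 bases before the start, and Spib held 1, 196 bases before it. The stretch before the second Irf8 start, chr8:120738389-120738638, is not printed and held 2 ETS cores, 242 and 147 bases before that start. The composite ETS-IRF motif (GGAA, any 2 bases, GAAA) and the pair of IRF half-motifs (GAAA, any 2 bases, GAAA) matched in none of these stretches. Only that order of the composite was searched. At its PU box the Irf4 stretch holds TTCCTCtttc, which on the opposite strand has the other order (GAAA, any 2 bases, GGAA). The share of promoters with the other order was not counted. Over 32851 promoters of the same length, 93.4% held an ETS core, 23.3% a PU box, 2.3% the composite motif and 3.0% the IRF pair. The Irf4 PU box is therefore the only match to the searched motifs that most promoters lack, and a match describes letters, not a bound site.

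Total counts ran from 17257914 to 50235192 per library, and each of the 3 genes had between 4496 and 82947 reads in every library. In some pairs the libraries differed by little more than counting error. The libraries were treated as sets, although no label names a batch. The 4 libraries with both factors or the ERK inhibitor held Gapdh at 1399 to 1730 CPM (counts scaled to the size of the library), against at most 12.3 CPM in the other 14. The CXCR4-/- cultures were taken as another set by their labels, and the sorted cells as another. Where a comparison crosses sets, the medium or genotype and the set cannot be told apart. Cxcr4 itself was at 943 and 922 CPM in sorted wild type and at 37.2 and 409 CPM in the sorted libraries labelled CXCR4-/-, and at 114 to 137 CPM in the CXCR4-/- cultures, which is no lower than the 112 to 113 CPM of IL7+ cultures. Reads outside a deleted part would still be counted, so these groups are called by their labels. CXCR4-/- IL7- replicate 1 stood apart from its partner. Their median squared difference over genes was 119.5 times that expected from sampling noise. For the IL7- pair and the IL7- CXCL12+ pair this ratio was only 1.34 and 1.23. The second libraries of IL7- and IL7- CXCL12+ carry the small pre-B tag in their column names. B-lineage markers were present in all 9 groups, with none of the 7 below 1 CPM in any, but their levels were not constant. Their mean sum was 7543 CPM in sorted wild type and 5880 in sorted CXCR4-/-. Among cultures it was 4566 CPM in IL7+, 5563 in IL7-, 6725 in IL7- CXCL12+ and 3662 in IL7+ CXCL12+. Without IL-7, CXCL12 came with 1 of 7 higher and 0 lower. With IL-7 present it came with 0 higher and 2 lower. IL7- CXCL12+ against IL7+ had 3 higher and 0 lower. The part of these markers in those results was not tested.

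By group means, Irf4 and Spib were highest in sorted cells, next in cultures given CXCL12 in place of IL-7, and lower in all other cultures. Irf8 was lowest in sorted cells and highest in those CXCL12 cultures. Not every step of these orders passed a test, as given below. Levels are CPM scaled by TMM, which adjusts for RNA composition. They are compared between libraries for each gene and not between genes. In bulk RNA, fewer cells with a transcript and less transcript per cell cannot be told apart. Where the libraries of 2 groups are said not to overlap, the share of all genes that do the same was not counted.

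Irf4 was at 1162 and 1115 CPM in sorted wild type, 988 and 954 in sorted CXCR4-/-, 753 and 722 in IL7- CXCL12+ and 386 and 376 in IL7-. It was at 245 and 261 CPM in CXCR4-/- IL7- CXCL12+, 235 and 224 in IL7+, 196 and 243 in CXCR4-/- IL7-, 218 and 218 with the ERK inhibitor and 198 and 200 with both factors. The highest group mean was 5.73 times the lowest. The top 4 groups did not overlap with one another or with the rest. Going down this order, sorted CXCR4-/- exceeded IL7- CXCL12+ (adjusted p = 0.0042, edgeR), IL7- CXCL12+ exceeded IL7- (1.5e-05), and IL7- exceeded CXCR4-/- IL7- CXCL12+ (3.3e-04). The 2 sorted groups did not pass the test against each other, nor did any neighbours among the 5 lowest groups.

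Spib followed nearly the same order. It was at 2621 and 2759 CPM in sorted wild type, 2093 and 2036 in sorted CXCR4-/- and 1839 and 1777 in IL7- CXCL12+. Then came 992 and 970 CPM in IL7-, 918 and 872 in IL7+, 817 and 802 in CXCR4-/- IL7- CXCL12+ and 718 and 826 in CXCR4-/- IL7-. The lowest values were 512 and 488 CPM in IL7+ CXCL12+ cultures, followed by 423 and 444 CPM under the inhibitor. The highest group mean was 6.20 times the lowest. The steps that passed were sorted wild type over sorted CXCR4-/- (adjusted p = 0.0032, edgeR), IL7- CXCL12+ over IL7- (8.2e-06) and CXCR4-/- IL7- over both factors (1.1e-04), and the other 5 steps between neighbours did not.

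Irf8 varied less, with the highest group mean 2.46 times the lowest. It was at 598 and 589 CPM in IL7- CXCL12+, 463 and 515 in CXCR4-/- IL7-, 462 and 465 in IL7-, 473 and 441 in CXCR4-/- IL7- CXCL12+ and 420 and 402 in IL7+. It was at 347 and 371 CPM with both factors, 284 and 285 with the ERK inhibitor, 260 and 256 in sorted CXCR4-/- and 227 and 255 in sorted wild type. Only IL7- CXCL12+ over CXCR4-/- IL7- (adjusted p = 0.0090, edgeR) and both factors over the ERK inhibitor (0.021) passed among neighbours. The 5 middle groups, from CXCR4-/- IL7- down to both factors, made no step that passed.

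**Figure D1:**
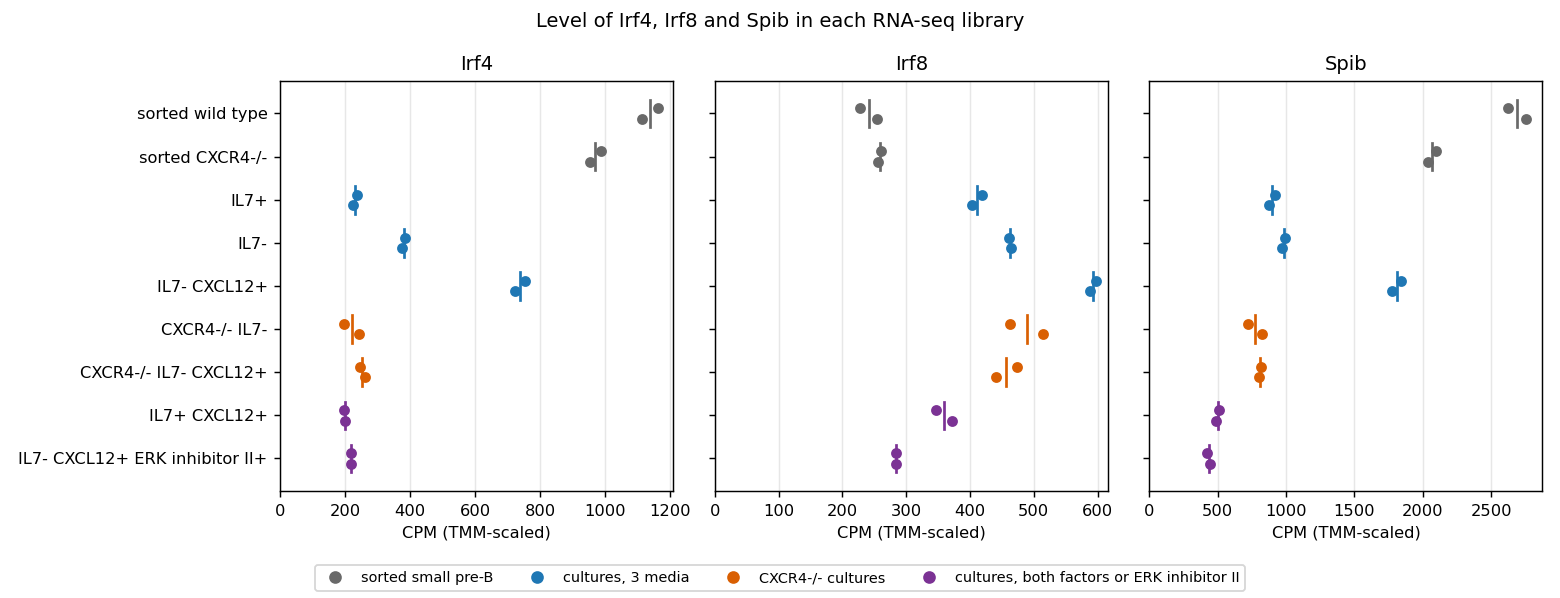
CPM of Irf4, Irf8 and Spib on the x axes (scales differ) in each of the 18 libraries, by group on the y axis. Points are libraries, vertical bars are group means and colours are library sets. Irf4 and Spib are highest in sorted wild type (1162 and 1115 CPM for Irf4), while Irf8 is highest in IL7- CXCL12+ (598 and 589 CPM).

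The ratio of Irf4 to Irf8 reads within a library needs no scaling between libraries. It was 4.75 ± 0.52 (SD, n = 2) in sorted wild type and 3.76 ± 0.06 in sorted CXCR4-/-. In culture it was 1.24 ± 0.02 in IL7- CXCL12+, 0.822 ± 0.019 in IL7-, 0.766 ± 0.001 with the ERK inhibitor and 0.559 ± 0.002 in IL7+. It was 0.554 ± 0.021 with both factors, 0.554 ± 0.053 in CXCR4-/- IL7- CXCL12+ and 0.448 ± 0.035 in CXCR4-/- IL7-. IL7- CXCL12+ was the only culture with more Irf4 than Irf8 reads, in both of its libraries (1.26 and 1.23). Transcript lengths cancel in a comparison of this ratio between groups, but its distance from 1 does depend on them.

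**Figure D2:**
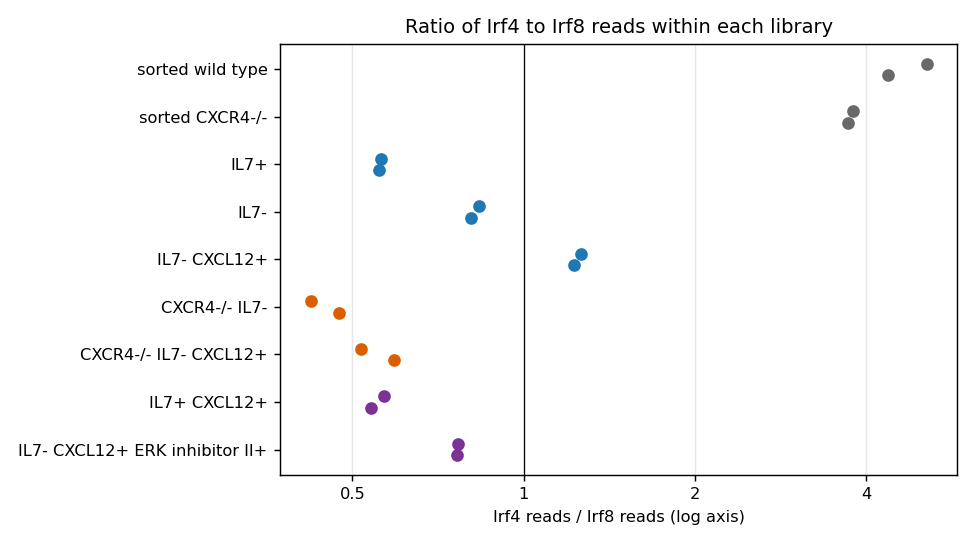
Irf4 reads divided by Irf8 reads on a log axis, 1 point per library, with a line at 1. The 4 sorted libraries sit between 3.72 and 5.11, and among cultures only the 2 IL7- CXCL12+ libraries lie above 1.

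Across the 9 group means of log2 CPM, Irf4 and Spib had a Pearson correlation of 0.95, Irf4 and Irf8 of -0.35, and Irf8 and Spib of -0.19. Over the 7 culture groups alone these were 0.87, 0.71 and 0.92. The points share media and library sets, so these are descriptions. Irf8 thus ran with the others among cultures, and the sorted cells gave the opposite order.

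Removing IL-7 raised Irf4 and left the other 2 genes below the threshold. Irf4 went from 229.6 ± 7.76 CPM (SD, n = 2) in IL7+ to 380.7 ± 6.81 in IL7-, a log2 change of 0.73 ± 0.10 (SE, adjusted p = 4.4e-04, edgeR). Both IL7- libraries were above both IL7+ libraries. Irf8 was at 411 ± 12.1 and 463.3 ± 2.41 CPM, a log2 change of 0.17 with a 95% interval of -0.01 to 0.35 (adjusted p = 0.22). Spib was at 894.9 ± 32.3 and 981.3 ± 15.7 CPM, a log2 change of 0.13 with an interval of -0.04 to 0.31 (adjusted p = 0.35). Of all genes tested, 11.8% passed in this comparison, 5.60% higher and 6.23% lower without IL-7.

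Adding CXCL12 to cells without IL-7 raised all 3 genes, in the same set of libraries. Irf4 rose 1.94-fold, from 380.7 ± 6.81 to 737.4 ± 21.6 CPM, a log2 change of 0.95 ± 0.10 (adjusted p = 1.5e-05, edgeR). Spib rose 1.84-fold, from 981.3 ± 15.7 to 1808 ± 44.2 CPM, a log2 change of 0.88 ± 0.08 (adjusted p = 8.2e-06). Irf8 rose 1.28-fold, from 463.3 ± 2.41 to 593.2 ± 6.28 CPM, a log2 change of 0.36 ± 0.08 (adjusted p = 0.0070). No CXCL12 library overlapped with an IL7- library for any of the 3, but the share of all genes without overlap was not counted. Within the IL7- and IL7- CXCL12+ pairs the median squared difference was only 1.34 and 1.23 times that expected from sampling noise. Of all genes, 30.6% passed, 17.3% higher and 13.2% lower. The Irf8 call was lost without the 4 libraries with both factors or the ERK inhibitor (log2 change 0.27), and with the 2 close pairs each summed to 1 library (0.36). It was also lost in 3 of the 4 fits that left out 1 library, namely either IL7- library or IL7- CXCL12+ replicate 1 (adjusted p up to 0.059), although the change itself stayed between 0.34 and 0.37.

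Set against IL7+ cultures directly, IL7- CXCL12+ cultures held 3.21 times the Irf4, 2.02 times the Spib and 1.44 times the Irf8. The log2 changes were 1.68 ± 0.10 (adjusted p = 7.6e-08, edgeR), 1.01 ± 0.08 (1.1e-06) and 0.53 ± 0.08 (2.3e-04). Of all genes, 51.3% passed here, 29.8% higher and 21.5% lower. This comparison shares its libraries with the 2 before it. For Irf4 the change came from both steps, 0.73 on losing IL-7 and 0.95 on adding CXCL12, whereas for Spib it was 0.13 and 0.88.

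**Figure D3:**
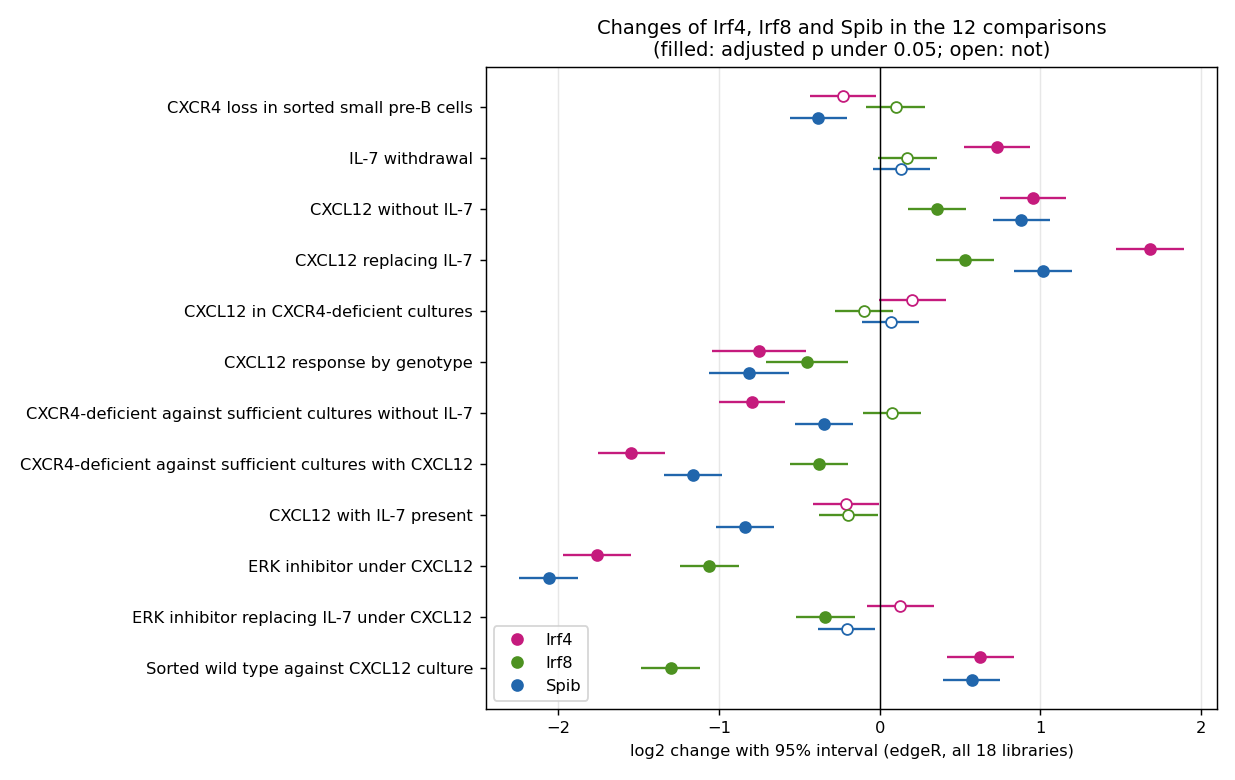
Log2 change on the x axis, with its 95% interval, for Irf4, Irf8 and Spib in the 12 comparisons on the y axis; filled points passed an adjusted p of 0.05 and open points did not. All 3 genes are filled and to the right for CXCL12 without IL-7 (0.95, 0.36 and 0.88), and all 3 are open for CXCL12 in CXCR4-deficient cultures.

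In the CXCR4-/- cultures CXCL12 moved none of the 3 genes past the threshold. Irf4 was at 196 and 243 CPM without and 245 and 261 CPM with CXCL12, a log2 change of 0.20 with an interval of -0.0027 to 0.41 (adjusted p = 0.11, edgeR). Irf8 was at 463 and 515 against 473 and 441 CPM, a log2 change of -0.10 with an interval of -0.28 to 0.09 (adjusted p = 0.40). Spib was at 718 and 826 against 817 and 802 CPM, a log2 change of 0.07 with an interval of -0.11 to 0.25 (adjusted p = 0.55). Irf8 and Spib overlapped between the media and Irf4 did not. At an unadjusted p under 0.05 edgeR also passed 0 of the 3, and DESeq2 passed 1, Irf4. Of all genes, 33.8% passed. Much rested on CXCR4-/- IL7- replicate 1: without it the change of Irf4 was 0.067 and that of Spib -0.017, and without its partner they were 0.37 and 0.18, both then past the threshold.

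The difference between the CXCL12 responses was tested as an interaction, and the response was smaller in CXCR4-/- cultures for all 3 genes. For Spib it was smaller by 0.81 ± 0.12 on the log2 scale (interval of the signed difference -1.06 to -0.56, adjusted p = 4.1e-04, edgeR). For Irf4 the difference was -0.75 ± 0.13 (interval -1.04 to -0.46, adjusted p = 0.0020), and for Irf8 -0.45 ± 0.12 (interval -0.71 to -0.20, adjusted p = 0.016). Of all genes, 25.2% passed, 12.1% with a higher and 13.1% with a lower response in the CXCR4-/- cultures. Each response was taken within its own set of libraries, so a constant offset between sets drops out. A response that differs by set and one that differs by genotype cannot be told apart. B-lineage markers also had a lower response in CXCR4-/- cultures (5 of 7 lower, 0 higher, median -0.98), as did mature B-cell markers (5 of 11 lower, 0 higher, median -1.07), and their part in the result was not tested. The Spib and Irf4 differences passed without CXCR4-/- IL7- replicate 1 and in every other fit that left out 1 library, from -0.84 to -0.70 and from -0.80 to -0.58. With only these 4 groups in the fit, Irf4 (-0.67) and Irf8 (-0.38) no longer passed. Irf8 also missed the threshold in 5 of the 8 fits that left out 1 library, namely any of the 4 CXCR4-sufficient libraries or CXCR4-/- IL7- CXCL12+ replicate 2.

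Compared across sets, CXCR4-/- IL7- cultures held less Irf4 (219.5 ± 33.7 against 380.7 ± 6.81 CPM, log2 change -0.79 ± 0.10, adjusted p = 2.6e-05, edgeR) and less Spib (772.1 ± 76.2 against 981.3 ± 15.7 CPM, -0.35 ± 0.08, 0.0027) than IL7- cultures. Irf8 was at 488.6 ± 36.7 against 463.3 ± 2.41 CPM (0.08 ± 0.08, 0.43). With CXCL12 in both, Irf4 (log2 change -1.54), Spib (-1.16) and Irf8 (-0.38) were all lower in the CXCR4-/- cultures, as were 5 of 7 B-lineage and 11 of 11 mature B-cell markers. In these comparisons 65.6% and 63.0% of all genes passed, so a pass places a gene with the majority. With only the 2 groups without IL-7 in the fit, Irf4 (-0.78) and Spib (-0.34) no longer passed.

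Among sorted small pre-B cells, only Spib passed. It was at 2621 and 2759 CPM in wild type and 2093 and 2036 CPM in CXCR4-/-, a log2 change of -0.38 ± 0.08 (adjusted p = 0.0032, edgeR). Irf4 was at 1162 and 1115 against 988 and 954 CPM, without overlap, a log2 change of -0.23 with an interval of -0.44 to -0.02 (adjusted p = 0.081). Irf8 was at 227 and 255 against 260 and 256 CPM, a log2 change of 0.10 with an interval of -0.08 to 0.28 (adjusted p = 0.40). Of all genes, 34.2% passed, 16.6% higher and 17.6% lower. Irf4 passed, at -0.30, under DESeq2 and with RLE size factors. Spib and Irf4 were close in the 2 CXCR4-/- libraries although Cxcr4 was at 37.2 CPM in one and 409 CPM in the other. Mature B-cell markers moved in the same direction. Their summed level was 2556 and 2530 CPM in wild type and 1260 and 1243 CPM in CXCR4-/-. Lower there were also 4 of 10 plasmacytoid dendritic, 6 of 8 conventional dendritic and 2 of 7 B-lineage markers, and 0 were higher. Pro-B and progenitor markers summed to 412 and 401 CPM in wild type and 606 and 734 CPM in CXCR4-/-. Of these 8, 2 were higher and 2 lower. The part of all these markers in the result was not tested.

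With IL-7 present, CXCL12 did not come with higher levels of any of the 3 genes. Spib was lower with both factors than in IL7+ (500.3 ± 17.1 against 894.9 ± 32.3 CPM, log2 change -0.84 ± 0.08, adjusted p = 9.3e-06, edgeR). Irf4 (-0.21 ± 0.09, adjusted p = 0.12) and Irf8 (-0.19 ± 0.08, 0.097) did not pass, while 31.8% of all genes did. The ERK inhibitor group, set against IL7- CXCL12+, had 4.17-fold lower Spib (433.8 ± 14.8 against 1808 ± 44.2 CPM, log2 change -2.06 ± 0.08), 3.39-fold lower Irf4 (-1.76 ± 0.10) and 2.09-fold lower Irf8 (-1.06 ± 0.08). All 3 passed there (adjusted p at most 5.0e-07), as did 56.9% of all genes. B-lineage markers moved in the same direction, with 5 of 7 lower (median -1.09) and a summed level of 3589 and 3741 CPM against 6781 and 6670 CPM, and their part was not tested. Both of these comparisons cross library sets, so the factor or inhibitor and the set cannot be told apart.

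The comparison that stays within that set is the ERK inhibitor group against cultures with both factors, which differ in IL-7 as well as in the inhibitor. Irf4 was at 218 and 218 against 198 and 200 CPM (log2 change 0.13 ± 0.09, adjusted p = 0.50, edgeR) and Spib at 423 and 444 against 512 and 488 CPM (-0.21 ± 0.08, 0.15). Irf8 was lower, at 284 and 285 against 347 and 371 CPM (-0.34 ± 0.08, adjusted p = 0.021), where 11.0% of all genes passed. Leaving out any 1 of these 4 libraries ended the Irf8 call (adjusted p 0.055 to 0.13). Without IL-7 and with the inhibitor, Irf4 thus stood at 217.6 ± 0.07 CPM, near the 229.6 ± 7.76 CPM of IL7+ cultures, with the set difference untested.

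Sorted wild-type cells and IL7- CXCL12+ cultures differed in opposite directions for the 2 IRF genes. Irf4 was 1.54-fold and Spib 1.49-fold higher in sorted cells (log2 changes 0.63 ± 0.09 and 0.57 ± 0.08, adjusted p = 1.5e-04 and 9.1e-05, edgeR). Irf8 was 2.46-fold lower (log2 change -1.30 ± 0.08, adjusted p = 1.3e-07). Of all genes, 51.4% passed, and sorting, culture and library set cannot be told apart here.

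Some of the other IRF genes moved with CXCL12 as well. With CXCL12 added to cells without IL-7, 3 of 7 rose and 0 fell, where 17.3% of all genes rose and 13.2% fell: Irf1, an interferon-induced activator (80.6 to 115 CPM, log2 change 0.51 ± 0.07), Irf9, the DNA-binding part of the type I interferon complex (37.6 to 51.6 CPM, 0.46 ± 0.10), and Irf5, which acts below Toll-like receptors (115 to 156 CPM, 0.44 ± 0.09). The list's median was 0.31 against 0.09 over all genes. Irf2 (0.08), Irf3 (0.31) and Irf7 (0.13) did not pass. After IL-7 removal edgeR called 0 of 7, beside 11.8% of all genes, with 1 at an unadjusted p under 0.05, and DESeq2 also called 0. In the genotype comparison of the CXCL12 response 4 of 7 had a lower response in CXCR4-/- cultures, beside 13.1% of all genes. These were Irf1 (-0.66), Irf3 (-1.01), Irf5 (-0.55) and Irf9 (-0.48). Irf3 was at 128.8 ± 43.4 CPM in the CXCR4-/- IL7- pair, whose libraries stood apart from each other. In sorted CXCR4-/- cells 3 of 7 were lower and 0 higher, beside 17.6% and 16.6% of all genes. The list's median there was -0.08 against -0.01 over all genes. Among the 3 were Irf1 (-0.33 ± 0.07) and Irf9 (-0.39 ± 0.10).

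Among 17 other ETS genes, 5 rose and 0 fell with CXCL12 in cells without IL-7, with a median of 0.21. There 17.3% of all genes rose and 13.2% fell. PU.1, the ETS factor most like SPI-B in its binding, rose from 63.5 to 111 CPM (log2 change 0.81 ± 0.12, adjusted p = 3.4e-04, edgeR). Summed monocyte and macrophage markers rose there from 275 to 682 CPM and neutrophil markers from 129 to 347 CPM. In the CXCR4-/- cultures the monocyte and macrophage sum was 19.5 CPM without and 16.0 CPM with CXCL12. The part of these markers in the PU.1 results was not tested. Ets2, a factor phosphorylated by ERK, rose from 17.0 to 55.2 CPM (1.70 ± 0.12), the repressor Erf from 12.4 to 24.7 CPM (1.00 ± 0.17) and Etv5 from 6.32 to 10.6 CPM (0.74 ± 0.17). Spic, another PU.1 relative, was at 0.218 and 0.514 CPM. The PU.1 response was lower in CXCR4-/- cultures (-1.13 ± 0.17), as was that of Ets2 (-1.71 ± 0.17), while those of Ets1 (0.78) and Gabpa (0.83) were higher, giving 3 of 17 in each direction, near the 12.1% and 13.1% of all genes. After IL-7 removal 3 of 17 rose, beside 5.60% of all genes: Ets2 (0.89 ± 0.11), Elk3 (0.45 ± 0.08) and Fli1 (0.27 ± 0.08). PU.1 did not pass (0.26 ± 0.12). In sorted CXCR4-/- cells 2 rose and 3 fell, beside 16.6% and 17.6% of all genes. PU.1 was there at 110 against 93.6 CPM (0.23 ± 0.12, adjusted p = 0.17, edgeR).

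With CXCL12 in cells without IL-7, 17.3% of all genes rose and 13.2% fell. Of 8 genes for known binding partners of IRF4 or IRF8, PU.1 included, 3 rose there and 0 fell. The other 2 were the AP-1 genes Jund (116 to 421 CPM, log2 change 1.86 ± 0.39) and Junb (41.8 to 99.8 CPM, 1.26 ± 0.35). The same 3 had a lower response in CXCR4-/- cultures, as had 13.1% of all genes. Ikzf1, which encodes Ikaros, rose on IL-7 removal (576 to 839 CPM, 0.54 ± 0.15) as the only 1 of the 8, beside 5.60% of all genes. In IL7- CXCL12+ against IL7+ cultures 7 of 8 were higher, beside 29.8% of all genes. In sorted CXCR4-/- cells 2 of 8 were higher, beside 16.6% of all genes: Jund (1.81 ± 0.39) and the E protein gene Tcf3 (0.54 ± 0.12).

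Of 12 genes described as targets of IRF4 or IRF8, 3 rose and 2 fell with CXCL12 in cells without IL-7, with a median of 0.46. Over all genes 17.3% rose and 13.2% fell. Il2ra, the CD25 marker of small pre-B cells, rose from 30.2 to 94.1 CPM (log2 change 1.64 ± 0.10), the repressor Bcl6 from 13.4 to 38.9 CPM (1.54 ± 0.18) and Mdm2, which restrains p53, from 142 to 206 CPM (0.54 ± 0.08). Vpreb2, a gene of the surrogate light chain in the pre-B receptor, fell from 70.2 to 8.88 CPM (-2.98 ± 0.31). In CXCR4-/- cultures these 4 genes had responses that differed from those by -1.50, -1.61, -0.40 and 1.91. No other gene of the list passed there, where 25.2% of all genes did. In sorted CXCR4-/- cells the surrogate light chain genes Igll1 (76.4 to 357 CPM), Vpreb1 (34.9 to 190 CPM) and Vpreb2 (3.48 to 13.0 CPM) were higher. There 4 of the 12 were lower, Il2ra among them (449 to 211 CPM, -1.09 ± 0.10). Of all genes 16.6% were higher and 17.6% lower. After IL-7 removal 2 rose, Bcl6 (0.73 ± 0.18) and Ikzf1, and Il2ra fell (-0.33 ± 0.10), beside 5.60% and 6.23% of all genes. Cxcr4 is itself in this list. Vpreb1 and Vpreb2 are near-identical copies, so the split of reads between them is uncertain.

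Of 17 genes described as targets of PU.1 or SPI-B, 5 rose and 0 fell with CXCL12 in cells without IL-7, with a median of 0.39. The shares of all genes that rose and fell were 17.3% and 13.2%. The kinase gene Lyn rose from 271 to 370 CPM (log2 change 0.45 ± 0.08), Cd72, a B-cell co-receptor, from 363 to 665 CPM (0.87 ± 0.17), the inhibitory Fc receptor gene Fcgr2b from 59.2 to 77.7 CPM (0.39 ± 0.09) and the pre-B receptor kinase gene Syk from 1208 to 1837 CPM (0.60 ± 0.14). A lower response in CXCR4-/- cultures was called for 6 of 17 and a higher one for 0 (13.1% and 12.1% of all genes), with Cd72 (-1.54), Lyn (-0.47), Fcgr2b (-0.57) and Blk (-0.44) among them. In sorted CXCR4-/- cells, where Spib was lower, 7 of 17 were lower and 0 higher (17.6% and 16.6% of all genes), with a median of -0.44 against -0.01 over all genes. The 4 with the smallest p were the receptor gene P2ry10 (32.1 to 6.14 CPM), Ms4a1, which encodes CD20 (260 to 36.0 CPM), Fcgr2b (86.8 to 61.4 CPM) and Lyn (535 to 411 CPM). Ms4a1 also stands in the mature B-cell marker list, whose sum was lower in those cells. After IL-7 removal 3 rose, among them Cd72 (132 to 363 CPM, 1.46 ± 0.17), and P2ry10 fell (-0.67 ± 0.15). Of all genes 5.60% rose and 6.23% fell.

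**Figure D4:**
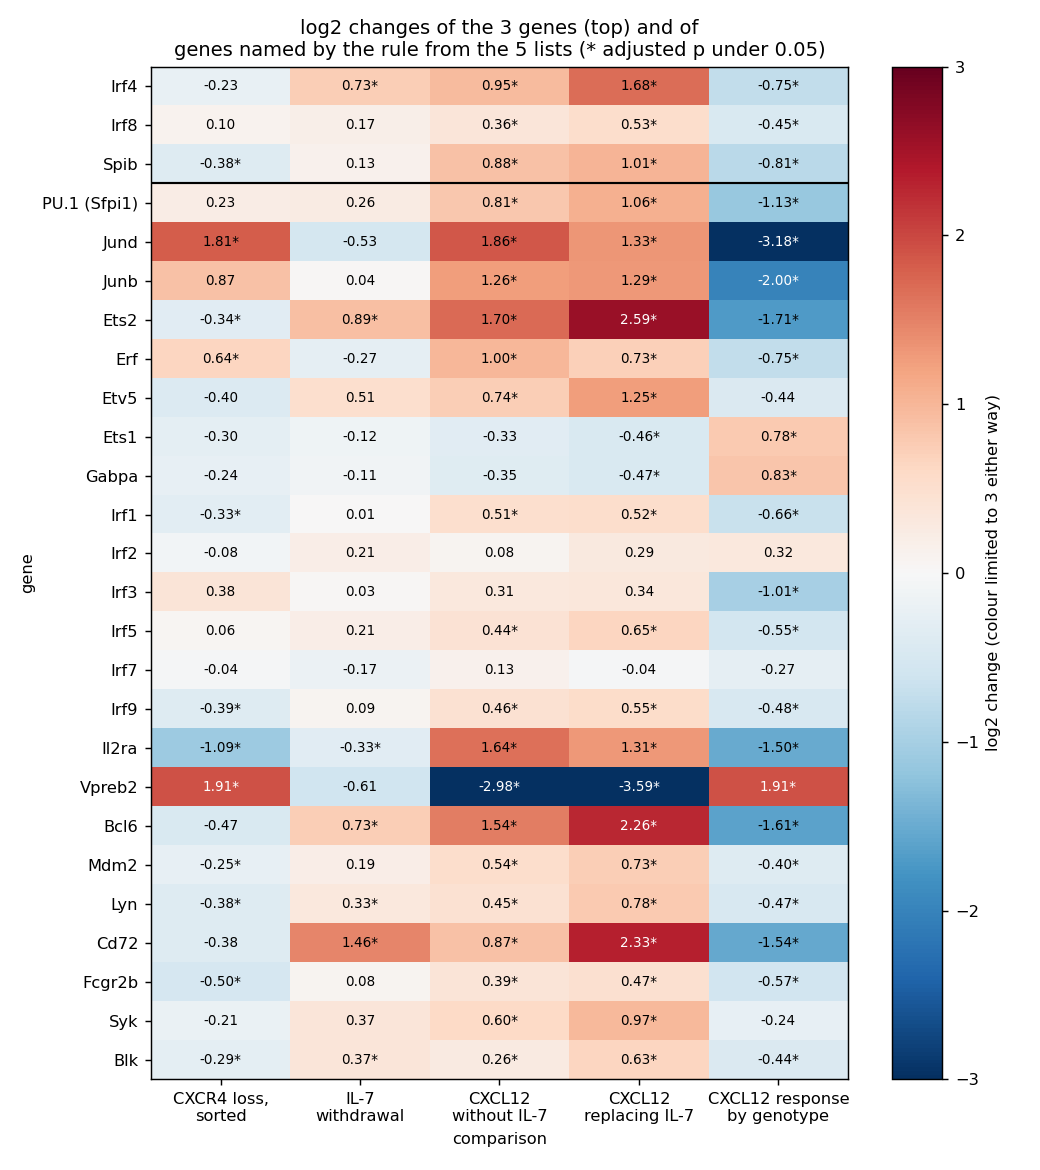
Log2 changes in 5 comparisons (columns) for Irf4, Irf8 and Spib (top rows) and for the genes of the 5 lists named by rule in the CXCL12 and genotype comparisons, where each group had at least 1 CPM; colour and number give the change and a star an adjusted p under 0.05. PU.1 is starred in the same 3 columns as Irf8 (0.81, 1.06 and -1.13), and Ets2 in all 5.

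IRF8 is also abundant in monocytes, macrophages and dendritic cells, and IRF4 in plasma cells, so markers of these cells are given beside the results. The summed level of 9 monocyte and macrophage markers was 132 and 207 CPM in IL7+, 277 and 273 in IL7- and 687 and 676 in IL7- CXCL12+, rising with all 3 genes there. It was 891 and 837 CPM with both factors and 2987 and 3034 CPM with the ERK inhibitor, where Irf8 was lowest of all cultures. In the CXCR4-/- cultures it was 15.5 to 21.2 CPM, with 4 of 9 markers below 1 CPM, while Irf8 stood at 441 to 515 CPM. In sorted wild type the sum was 799 and 774 CPM, with Irf8 at 227 and 255 CPM. In sorted CXCR4-/- cells the sum was 1030 and 226 CPM and Irf8 was 260 and 256 CPM. Neutrophil markers (8 genes) summed to 5342 and 5321 CPM in sorted wild type and 6482 and 1076 CPM in sorted CXCR4-/-. They were at 83.5 and 87.9 CPM in IL7+, 131 and 127 in IL7- and 343 and 351 in IL7- CXCL12+. They were at 1324 and 1213 CPM with both factors, 1135 and 1154 with the ERK inhibitor and 0.206 to 0.768 in the CXCR4-/- cultures. Their part was not tested. Stromal markers rose from 1281 and 1262 CPM in IL7- to 3226 and 3162 CPM in IL7- CXCL12+ and were 4.08 to 10.0 CPM in the CXCR4-/- cultures, and their part in the CXCL12 results and in the genotype difference was not tested. The sum of 8 plasma cell markers, Irf4 left out, was 647 and 647 CPM in IL7- and 582 and 574 CPM in IL7- CXCL12+, where Irf4 was higher. In sorted cells, which held the most Irf4, it was 1371 and 1323 CPM in wild type, where Igj was at 348 and Ighg3 at 299 CPM, and 894 and 863 CPM in CXCR4-/-, where they were at 11.7 and 3.22 CPM. It was also 1365 and 1035 CPM in CXCR4-/- IL7- cultures, where Irf4 was at 196 and 243 CPM. Sorted wild type had 7 of these 8 markers higher than IL7- CXCL12+ cultures and 0 lower. Of all genes 51.4% passed there, in either direction. The part of these markers in the Irf4 difference was not tested. Plasmacytoid dendritic markers summed to 243 and 241 CPM and 250 and 245 CPM, mostly Tcf4, which pre-B cells also express. Conventional dendritic markers summed to 37.3 and 37.2 CPM in IL7- and 68.7 and 70.2 CPM in IL7- CXCL12+, in the direction of Irf8. There 3 of 8 were higher and 0 lower, beside 17.3% and 13.2% of all genes. Of these 8, 5 were below 1 CPM in both groups, Xcr1 (0.06 CPM) and Clec9a (0.04 and 0.09 CPM) among them. The sum was 130 and 135 CPM with the ERK inhibitor and 31.3 ± 1.04 CPM (mean and SD, n = 2) in CXCR4-/- IL7- CXCL12+. The part of these markers in the Irf8 result was not tested. Mature B-cell markers went from 983 and 958 to 1565 and 1533 CPM, in the direction of the 3 genes. Pro-B and progenitor markers (8 genes) had mean sums of 406 CPM in sorted wild type, 670 in sorted CXCR4-/- and 694 in IL7- CXCL12+. The sums were 822 CPM with both factors, 835 in IL7+, 886 in IL7- and 992 in CXCR4-/- IL7- CXCL12+. They were highest with the ERK inhibitor (1253 CPM) and in CXCR4-/- IL7- (1256 CPM). With CXCL12 added to IL7- cells, 2 of 8 were higher and 2 lower, beside 17.3% and 13.2% of all genes. Their part was not tested.

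**Figure D5:**
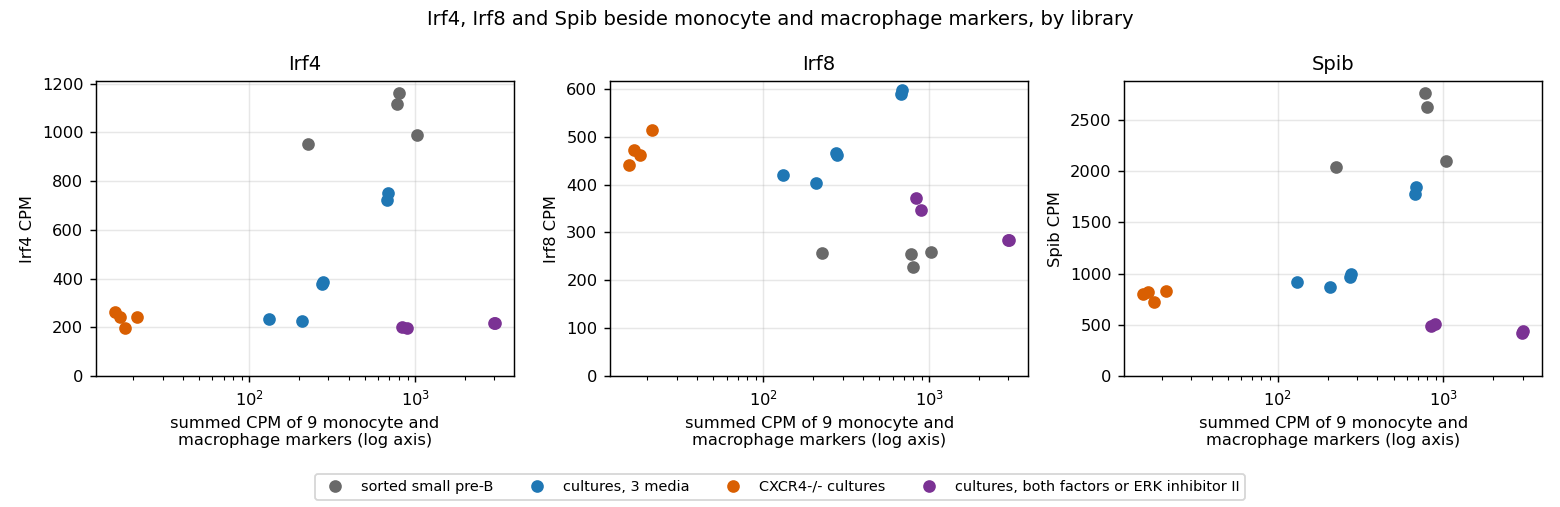
CPM of Irf4, Irf8 and Spib (y axes) against the summed CPM of 9 monocyte and macrophage markers (log x axis), 1 point per library, coloured by library set. The 2 ERK inhibitor libraries lie farthest right (2987 and 3034 CPM) with Irf8 at 284 and 285 CPM, and the 4 CXCR4-/- culture libraries farthest left with Irf8 at 441 to 515 CPM.

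Among 9509 genes with an average log2 CPM of at least 3, those whose 9 group means ran most like Irf4 were Ets2 (Pearson 0.995), D930015E06Rik (0.992), Serinc5 (0.991), Msh3 (0.99) and Fam117a (0.989). Over the 7 culture groups the 5 values were 0.975 to 0.986. Ets2 was at 89.6 CPM in sorted wild type, 55.2 in IL7- CXCL12+ and 7.61 with both factors. Among those most like Spib were Foxp1 (0.989), a forkhead factor of early B cells, Limd1 (0.989), Trim8 (0.986) and Samd10 (0.986). Foxp1 was at 847 CPM in sorted wild type, 643 in IL7- CXCL12+ and 302 with the ERK inhibitor. Those most like Irf8 were Sdc4 (0.975), a cell surface proteoglycan gene, Fam118a (0.971), Ppic (0.962), Gpr125 (0.947) and Maged1 (0.941), and over the cultures alone their values were 0.875 to 0.955. Sdc4 was at 522 CPM in IL7- CXCL12+ and 184 in sorted wild type. The 9 points share library sets, depth and composition, and the values are descriptions.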

How the data were processed

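RNA-seq was analysed in 18 libraries, 9 groups of 2, from the counts per gene that the authors deposited as 1 table, whole numbers without normalization. The submitters' processing notes name STAR, featureCounts and build mm9, and versions, annotation and strand setting are not given in the sources used here. None of the 8 ATAC-seq libraries was used here. The 3 genes and all gene lists were chosen with earlier results of these data known.

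Genes were filtered with filterByExpr, scaled by TMM and fitted in 1 quasi-likelihood model of the 9 groups (edgeR 4.0.16, R 4.3.3), so that all libraries share 1 estimate of the spread. P-values were adjusted by Benjamini-Hochberg over 14862 genes, with a threshold of 0.05. SE is the log2 change divided by the square root of its F. The code was tested on simulated data. Total counts of 17257914 to 50235192 per library set the counting precision. Named were the 3 genes, the IRF list, Sfpi1 and Spic, up to 4 called genes with the smallest p in each other list and comparison, and the 5 genes most like each of the 3; 2 genes that this rule names are not reported here. Marker lists served as a check of other cell types. Alternatives were RLE size factors, other filters, DESeq2 1.42.0, fits of only the groups compared, a replicate block and each library left out. Added after seeing the data were library totals alone, close pairs summed, and the omission of the 4 libraries with both factors or the ERK inhibitor. Promoter sequences came from RefSeq (GRCm38.p6), matched by symbol for all 3 genes. Replicate numbers did not pair the libraries.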

Additional observations from a re-analysis of the deposited data

Results flagged for a closer look

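The CXCL12 response differed between CXCR4-/- and CXCR4-sufficient cultures without IL-7, by an interaction term in edgeR's quasi-likelihood model, for each of the 3 genes. The difference was -0.75 for Irf4 (adjusted p = 0.0020), -0.45 for Irf8 (adjusted p = 0.016) and -0.81 for Spib (adjusted p = 4.1e-04), in log2 units, the CXCR4-/- response minus the other. With only these 4 groups in the fit, Irf4 and Irf8 no longer passed. The Irf8 call was also lost with library totals alone, with close pairs summed, without the 4 libraries with both factors or the ERK inhibitor, and in 5 of the 8 fits that left out 1 library. In CXCR4-sufficient cultures both CXCL12 libraries were above both libraries without it for all 3 genes. The share of all genes that do not overlap there was not counted, and both pairs differed by little more than sampling noise. The 2 genotypes were treated as different library sets, although no label names a batch. A difference in response between sets and between genotypes cannot be told apart.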

How the results depend on the processing

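The replicate block changed no call of the 3 genes (Irf4 with CXCL12 in IL7- cultures, main value 0.95, 0.95 with the block). Replicate numbers were only shared: replicate differences correlated from -0.39 to 0.52 over 36 pairs of groups, and 4 pairs were over 0.1. For Irf4, Irf8 and Spib over the 12 comparisons, 278 values under alternatives that left out no single library held their direction and side of the threshold, 13 newly passed, 10 no longer passed and 2 reversed. With 1 library left out these were 140, 2, 12 and 2. The causes were not tested. RLE size factors: Irf4 in sorted cells -0.30, now passing. Library totals alone moved the median of all genes from -0.13 to -0.32 in CXCR4-/- against IL7- cultures, from -0.03 to -0.17 for CXCL12 with IL-7 and from -0.14 to -0.0042 for the response by genotype, and gave for Irf8 0.024 (CXCL12 in CXCR4-/- cultures, reversed), -0.11 (CXCR4-/- against IL7-, reversed), -0.33 (response by genotype, no longer passing), -0.34 (CXCL12 with IL-7, now passing) and -0.26 (ERK inhibitor against both factors, no longer passing). DESeq2 newly passed Irf4 in sorted cells (-0.30) and with CXCL12 in CXCR4-/- cultures (0.20), Irf8 on IL-7 removal (0.19) and with CXCL12 and IL-7 (-0.18), and Spib with the ERK inhibitor against both factors (-0.17).

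With only the groups compared, Irf8 (0.14) and Spib (0.10) passed on IL-7 removal, Irf4 (-0.18) and Irf8 (-0.17) with CXCL12 and IL-7, and Irf4 (0.16) and Spib (-0.18) with the ERK inhibitor against both factors. Calls ended there for Irf4 (-0.67) and Irf8 (-0.38) in the response by genotype and for Irf4 (-0.78) and Spib (-0.34) in CXCR4-/- against IL7-. Without the 4 libraries with both factors or the ERK inhibitor, Irf8 gave 0.27 for CXCL12 without IL-7 and -0.35 by genotype, and with close pairs summed 0.36 and -0.45, none passing. Leaving out 1 library at a time, where the lone partner is assumed to vary like the other groups, gave Irf8 0.34 to 0.37 for CXCL12 without IL-7, -0.50 to -0.37 by genotype, -0.41 to -0.32 for the ERK inhibitor against both factors and -0.0050 to 0.082 for CXCR4-/- against IL7-. In CXCR4-/- cultures with CXCL12 it gave Irf4 0.067 to 0.37 and Spib -0.017 to 0.18.

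Counts over all genes depend on the spread estimate. Genes called on IL-7 removal numbered 1758, and 355 with close pairs summed, 1069 without the 4 libraries, 2653 by DESeq2 and 7299 with only those groups. For CXCL12 without IL-7 they were 4543, 1149 with close pairs summed and 10790 with only those groups. For the response by genotype they were 3750, 1083 and 1299. For CXCL12 in CXCR4-/- cultures edgeR called 5020, and 0 with only those groups (261 at an unadjusted p under 0.05) or without the 4 libraries (6079), while DESeq2 called 6221. Leaving out 1 library gave 0 to 8602 there. With only the groups compared, 8238 against 4720 were called for CXCL12 with IL-7, 6068 against 1640 for the ERK inhibitor against both factors and 2556 against 9743 for CXCR4-/- against IL7-.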
